A study of Mus musculus with 4 samples.

Results

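The 10 genes described here encode the main ligands and receptors of blood and lymph vessel growth: the ligands Vegfa, Vegfb, Vegfc and Pgf, their receptors Kdr, Flt1 and Flt4, the angiopoietins Angpt1 and Angpt2, and the angiopoietin receptor Tek. They were chosen by symbol, and all 10 were found, each under 1 identifier, among the 32285 genes listed. The data are single-cell RNA profiles of 4 prostate tumours, 1 per mouse, made with a 3' tag method that counts captured transcripts as unique molecular identifiers (UMIs). The alleles of the 2 PSp mice include PB-Cre, SpopF133V and mTmG, and the 2 PCSp mice carry the same alleles as the PSp mice with Chd1L/L added. PB-Cre is driven by the probasin promoter, which is active in prostate epithelium, so the vessels, the stroma and the immune cells are not its target. Every mouse had been castrated when 9 months old, and the tumour was collected 1 month after that, so the values below come without an uncastrated group. A level is given as CPM, the UMIs of a gene per 1000000 UMIs of a cell type in 1 mouse. Where 4 values follow each other, they are those of PSp mouse 1, PSp mouse 2, PCSp mouse 1 and PCSp mouse 2.

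VEGF-A binds a pair of receptors on blood endothelium: VEGFR2 (Kdr), which carries most of the growth signal, and VEGFR1 (Flt1), which binds it tightly and signals weakly. VEGF-B and placental growth factor (Pgf) bind VEGFR1, while VEGF-C acts through VEGFR3 (Flt4), the receptor on which lymphatic vessels depend. Angiopoietin 1, made by cells around vessels, activates TIE2 (Tek) and steadies vessels, and angiopoietin 2, made by endothelium itself, can block or activate TIE2 depending on the setting.

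After the cell filters the libraries held 5150 to 7810 cells, from totals of 66874620 to 90839725 UMIs. PCSp mouse 2 was the shallowest library, with a median of 2289 UMIs per barcode against 3448.5 to 3757 in the others. Pairs of libraries shared 7 to 18 cell barcodes. Chd1, the gene floxed in the PCSp mice, had 90.98, 77.6, 59.5 and 55.9 CPM in epithelial-like cells, a log2 difference of -0.57 ± 0.10 (SE, PCSp minus PSp) that did not pass (edgeR adjusted p = 0.393). Whether the counted tags lie in the floxed segment is not given in the sources used here, so this value does not check the deletion. Cells were named from marker genes that included none of the 10 members, and the members were kept out of the genes used for clustering.

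Blood endothelial-like cells numbered 108, 114, 155 and 109, and lymphatic endothelial-like cells 12, 24, 72 and 41. Prox1, which sets lymphatic identity, had 732.5 to 928 CPM in the lymphatic group and 5.56 to 21.6 CPM in the blood group. Plvap, of blood vessel pores, had 623 to 1025 CPM in the blood group and 29.0 to 115 CPM in the lymphatic group. RNA of other cells was present at low levels: epithelial Epcam had 20.5 to 38.3 CPM in the blood group and 18.8 to 58.0 CPM in the lymphatic group, and the pericyte gene Rgs5 had 43.1 to 216 CPM in the blood group. Col1a1 of fibroblasts was at 0 to 1.98 CPM in the blood group and at 0 in all 4 lymphatic samples. A further 37, 29, 47 and 45 endothelial cells, in a sub-cluster of low UMI count (median 987) and in a sub-cluster led by pericyte genes such as Notch3 and Cspg4, took no name and were kept out of both groups. The sub-cluster of low UMI count was led by Ccl21a and by the arterial markers Gja5 and Sema3g. Its leading genes also included the epithelial markers Krt18, Cldn4, Epcam and Krt19.

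Flt1 separated blood from lymphatic endothelium without overlap. It had 1293, 1210, 1239 and 1198 CPM in blood endothelial-like cells, a mean of 1235 ± 42.3 CPM (SD, n = 4). Lymphatic endothelial-like cells held no Flt1 UMI in any mouse, against 4150 UMIs in the blood group. A count of 0 allows up to 3 UMIs over the 4 mice, or 4.28 CPM. Limits of this kind cover counting error only.

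Flt4 had the opposite distribution, though not an exclusive one. Lymphatic endothelial-like cells had 812, 657, 718 and 680.5 CPM. Blood endothelial-like cells had 47.8, 79.8, 73.7 and 25.8 CPM, 12.6-fold less on average, and the groups did not overlap. Epithelial-like cells, the next type in order, had at most 1.24 CPM in any mouse.

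Kdr did not part the blood from the lymphatic vessels. It had 647, 465, 564 and 488 CPM in the blood group and 667, 613.5, 627 and 541 CPM in the lymphatic group. The lymphatic value was the higher in all 4 mice, by 1.13-fold on average, but the ranges overlapped. Among the other types, fibroblast-like cells had 3.71 to 15.2 CPM. Glial-like cells held only 2 UMIs in each PCSp mouse and none in the PSp mice. Those UMIs are 34.7 and 75.3 CPM, where free endothelial RNA could give 9.83 and 11.8 CPM.

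Tek was likewise shared. Blood endothelial-like cells had 144.5, 140.2, 144.5 and 161 CPM, and lymphatic endothelial-like cells 174, 62.6, 61.3 and 128 CPM, with overlapping ranges. Fibroblast-like cells came next with 26.1 to 36.1 CPM, below both endothelial groups in all 4 mice. Macrophage- and monocyte-like cells, next in order, had at most 0.746 CPM.

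**Figure D1:**
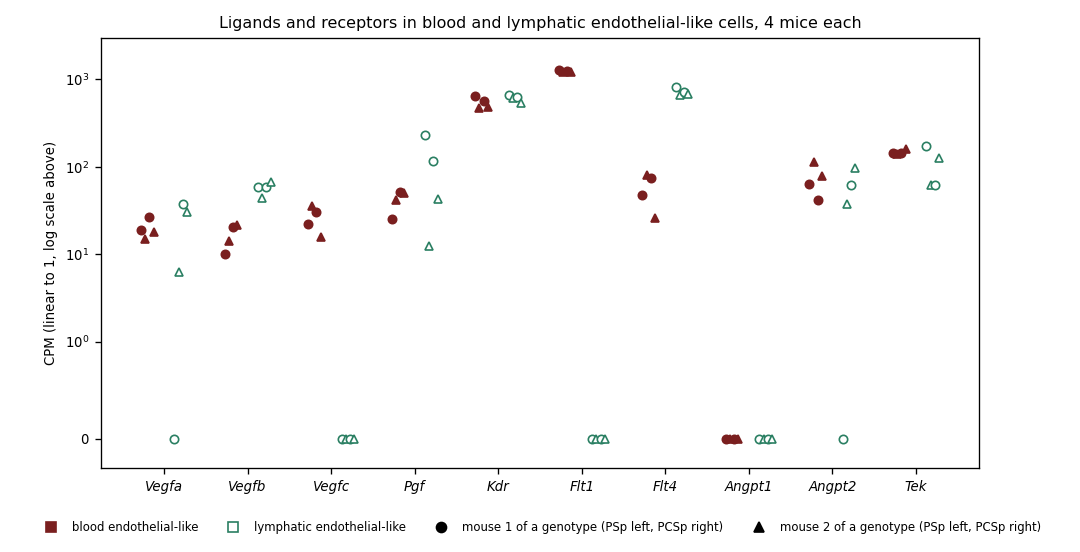
CPM of the 10 genes (axis linear to 1 CPM and logarithmic above) in blood (filled) and lymphatic (open) endothelial-like cells, 1 point per mouse, with circles for mouse 1 and triangles for mouse 2 of a genotype. Flt1 and Vegfc lie at 0 in all 4 lymphatic samples, Flt4 is 12.6-fold higher in the lymphatic group, and Kdr, Tek, Pgf and Angpt2 overlap.

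A UMI of Flt1 was seen in 92.2% of blood endothelial-like cells, and a UMI of Kdr in 81.7% of the blood and 73.2% of the lymphatic cells. Flt4 was seen in 79.9% of lymphatic and 22.0% of blood endothelial-like cells. Median depths were 4518.5 UMIs in the blood and 3373 UMIs in the lymphatic cells. With every cell thinned to 1000 UMIs, the Kdr shares were 41.6% and 44.5%, and the Flt4 shares 49.6% in the lymphatic and 5.42% in the blood cells. T- and NK-like cells, which should lack Flt1, had a UMI of it in 0.182% of cells at a median depth of 4331.5 UMIs.

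The receptor genes lie on mouse chromosomes 4, 5 and 11: Tek at chr4:94739289-94874976 on the plus strand, Kdr at chr5:75932827-75978458 and Flt1 at chr5:147561604-147726011 on the minus strand, and Flt4 at chr11:49609263-49652739 on the plus strand (GENCODE M21, GRCm38). Because the 4 are high in endothelium while Flt1 and Flt4 part between its blood and lymphatic kinds, the 250 bases before their RefSeq start sites are shown, 5′ to 3′ on the strand of the gene (GRCm38.p6). Capitals mark GGAA, the core letters of ETS-family binding sites, on either strand (GGAA or TTCC). The windows are chr5:147726012-147726261 for Flt1, chr5:75978456-75978705 for Kdr, chr11:49609429-49609678 for Flt4 and chr4:94739039-94739288 for Tek. The Flt4 window lies inside the GENCODE span of the gene, because its RefSeq start site is downstream of the GENCODE start.
Flt1: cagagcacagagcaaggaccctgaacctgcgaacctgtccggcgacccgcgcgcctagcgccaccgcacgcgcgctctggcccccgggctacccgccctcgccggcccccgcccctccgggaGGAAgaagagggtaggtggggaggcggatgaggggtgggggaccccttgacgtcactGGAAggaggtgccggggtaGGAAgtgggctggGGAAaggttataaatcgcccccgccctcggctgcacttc
Kdr: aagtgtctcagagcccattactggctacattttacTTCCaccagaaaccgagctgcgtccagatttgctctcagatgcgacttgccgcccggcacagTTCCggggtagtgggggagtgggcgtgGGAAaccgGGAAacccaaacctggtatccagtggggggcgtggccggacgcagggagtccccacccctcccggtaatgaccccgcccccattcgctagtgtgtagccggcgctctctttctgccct
Flt4: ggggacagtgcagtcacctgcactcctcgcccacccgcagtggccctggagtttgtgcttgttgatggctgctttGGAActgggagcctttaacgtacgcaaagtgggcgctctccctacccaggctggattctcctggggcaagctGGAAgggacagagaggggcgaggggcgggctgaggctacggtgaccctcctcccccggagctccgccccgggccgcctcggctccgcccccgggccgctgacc
Tek: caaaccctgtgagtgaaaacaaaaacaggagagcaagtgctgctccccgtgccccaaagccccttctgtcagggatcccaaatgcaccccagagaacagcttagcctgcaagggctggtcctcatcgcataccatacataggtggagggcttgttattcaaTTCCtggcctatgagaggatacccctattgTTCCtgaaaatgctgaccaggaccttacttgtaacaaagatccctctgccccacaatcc
Flt1 and Kdr had 4 matches each, a number reached by 33.4% of the 32851 promoter windows of all genes, and Flt4 and Tek had 2 each, reached by 76.8%. At least 1 match stood in 93.4% of all windows. These are counts of letters, not of bound sites.

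Flt1 was also found outside endothelium. Smooth muscle- and pericyte-like cells, the contractile cells of vessel walls, had 227, 126, 155 and 111.5 CPM, between every blood endothelial value and every neutrophil value. Free endothelial RNA could give 34.8, 4.01, 1.84 and 5.74 CPM of Flt1 there. In these cells Ptprb and Tie1, of endothelium, were at 86.8 and 12.4 CPM in PSp mouse 1 and at 0 in the other 3 mice. Kdr was at 3.87 CPM in PSp mouse 2 only. The part of endothelial RNA in this Flt1 was not tested. Neutrophil-like cells had 38.1, 44.5, 49.3 and 32.1 CPM of Flt1. The endothelial RNA that could lie free in them, judged from endothelial markers in the same cells, would give 4.15 to 9.55 CPM. Neutrophil cluster 13, led by Acod1 and Il1b, had the highest mean at 62.8 CPM, and cluster 8 the lowest at 16.5 CPM.

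Within blood endothelium the VEGF receptors varied with vessel type. There were 3 groups that could be named from markers: capillary-like (131 cells), tip-like (260 cells, as at sprouting vessel fronts) and venous-like (50 cells). No arterial-like group was named, and 45 more cells, with 765 to 965 CPM of Flt1, took no vessel name. Kdr had 627 to 879.7 CPM in the capillary-like group and 506 to 694 CPM in the tip-like group, but 107 to 246.5 CPM in the venous-like group. Flt1 followed the same order with 1300 to 1638, 1227 to 1483 and 616 to 807 CPM. Flt4 was also low in the venous-like group, with 4.74 to 17.9 CPM. For these 3 receptors the venous-like range lay below the ranges of both other named groups. Tek did not follow, with overlapping ranges of 118 to 173.5, 113 to 162 and 124 to 247.5 CPM. The groups came from clustering these same cells, so their differences carry no test, and a single mouse gave 9 to 82 cells per named group.

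**Figure D2:**
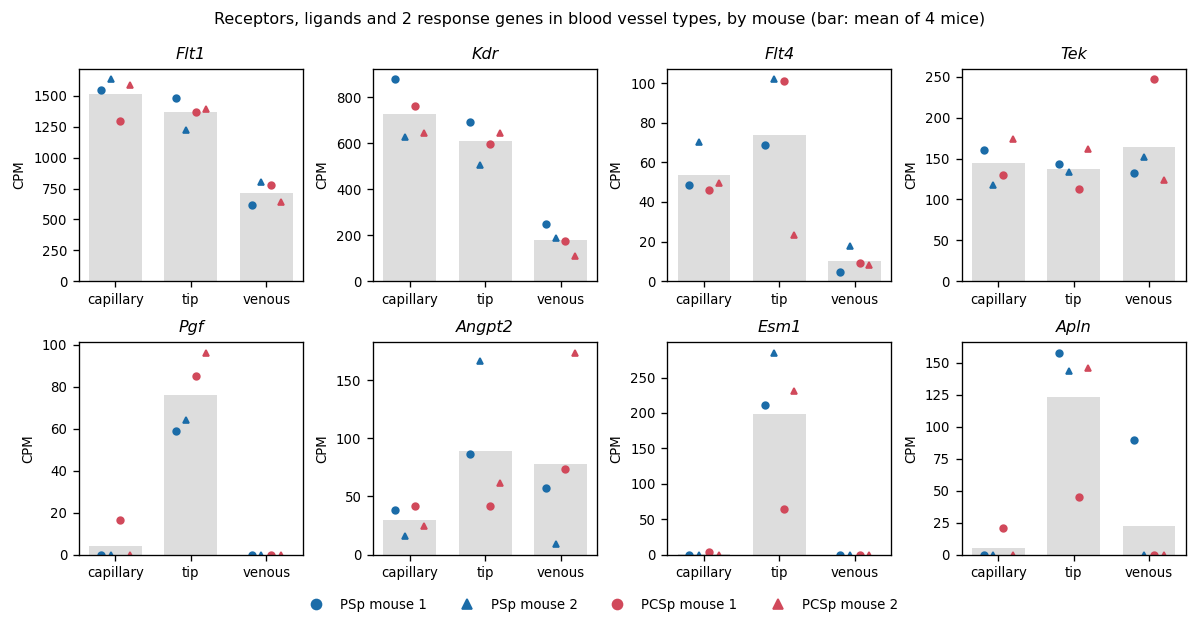
CPM of 4 receptors (Flt1, Kdr, Flt4, Tek), the ligands Pgf and Angpt2 and the VEGF response genes Esm1 and Apln in capillary-, tip- and venous-like blood endothelial cells, with 1 point per mouse and bars at the mean of 4 mice. Kdr, Flt1 and Flt4 are lowest in the venous-like group, and Pgf and Esm1 are highest in the tip-like group in all 4 mice.

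Among the ligands, Vegfa was highest in neutrophils. Neutrophil-like cells had 377, 320.5, 315 and 229 CPM, 4.09-fold above macrophage- and monocyte-like cells on average and above every value of any other type. Macrophages (60.8 to 89.5 CPM), fibroblast-like cells (69.0 to 80.4 CPM) and smooth muscle- and pericyte-like cells (39.8 to 129.6 CPM) overlapped. Epithelial-like cells had 53.3 to 64.0 CPM, T- and NK-like cells 32.3 to 49.8 CPM, and the blood endothelial-like cells on which VEGF-A acts 15.1 to 26.5 CPM. Epithelial-like cells still held most of the transcripts, with 65.8% of the 19953 Vegfa UMIs, and neutrophil-like cells held 3983 of them. Over all genes, epithelial-like cells held 221643856 UMIs and neutrophil-like cells 13059471. All kept cells together had 67.5 to 76.4 CPM of Vegfa, above the epithelial-like level in every mouse. The epithelial-like share of Vegfa UMIs was thus below their share of all UMIs. A UMI of Vegfa was seen in 41.4% of epithelial-like and 28.8% of neutrophil-like cells, at median depths of 9598 and 2149 UMIs. Thinned to 1000 UMIs per cell, the order turned, with 7.70% and 18.7%.

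The neutrophil level was uneven. Cluster 2, led by Ccl3 and Prok2, had 582, 565.5, 523 and 284 CPM of Vegfa, cluster 13 had 345.5, 259, 286 and 332 CPM, and cluster 8, led by S100a9 and S100a8, had 228, 200.4, 161 and 164 CPM. In PCSp mouse 2 cluster 2 was below cluster 13, and in the other 3 mice it was above.

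Single clusters of other types stood apart in Vegfa too. Among T- and NK-like cells, the cluster led by the granzymes Gzmc and Gzma had 120.2, 130.0, 164.5 and 167 CPM, while the other 2 clusters had means of 4.94 and 7.09 CPM. Among fibroblast-like cells the cluster led by Inmt and Wif1 had 166.5, 137, 135 and 141 CPM. In the epithelium 1 of 20 sub-clusters, led by Gm26917, Rmrp and histone genes, had 246, 239.7, 275 and 239 CPM, and the other 19 had means of 8.40 to 99.6 CPM. That sub-cluster (1520 cells) had a median of 2458 UMIs, and Malat1, a nuclear RNA, reached 113300 CPM in it against 1470 to 82590 CPM in the other sub-clusters. The part of RNA quality in this value was not tested.

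**Figure D3:**
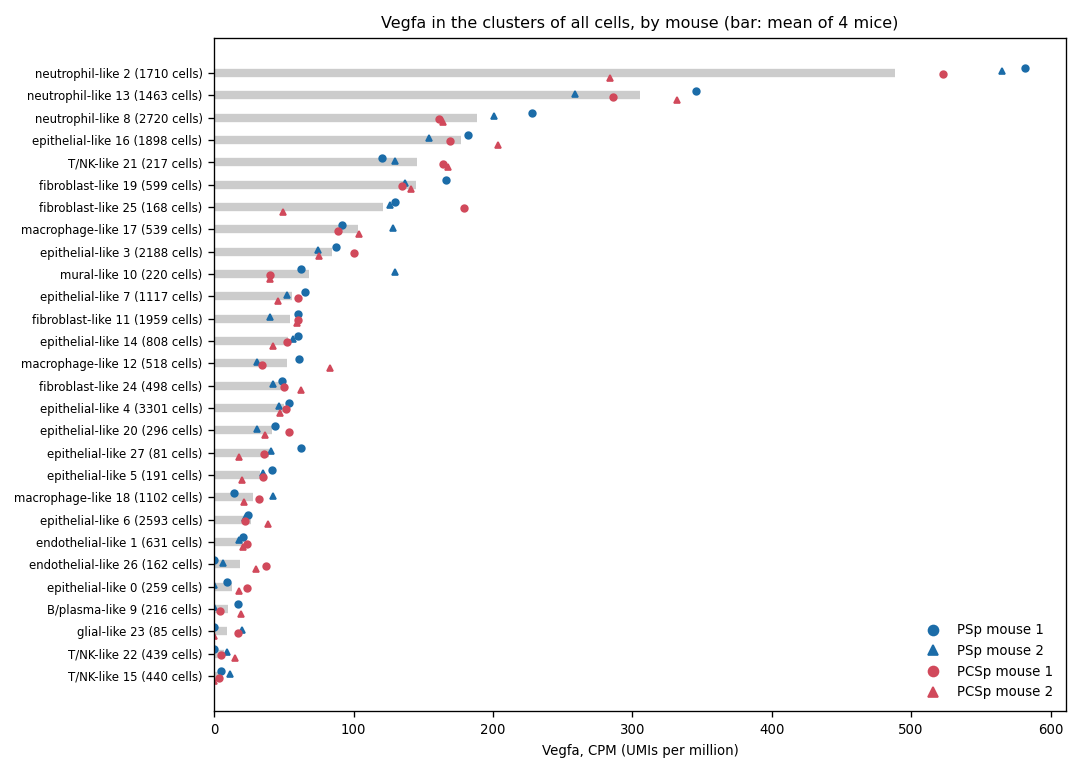
Vegfa in CPM in each of 28 clusters, named by cell type and number with the number of cells; points are mice and bars the mean of 4 mice. The 3 neutrophil-like clusters come first, with means of 188 to 489 CPM, followed by epithelial-like cluster 16 (177 CPM) and the granzyme-rich cluster 21 (145.5 CPM).

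Vegfb, a VEGFR1 ligand abundant in metabolically active tissue, was spread over more types. Fibroblast-like cells had 62.3 to 68.6 CPM, lymphatic endothelial-like cells 43.8 to 66.8 CPM, smooth muscle- and pericyte-like cells 42.5 to 59.9 CPM, epithelial-like cells 38.1 to 43.7 CPM and macrophages 34.7 to 41.3 CPM. Each of these types overlapped its neighbour in the order. Neutrophil-like cells, first in Vegfa, were last in Vegfb with 4.40 to 9.81 CPM. The lymphatic group exceeded the blood group (10.0 to 21.8 CPM) without overlap, 3.41-fold on average.

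Vegfc, a ligand of VEGFR3, was found in blood and not in lymphatic endothelium. Blood endothelial-like cells had 22.2, 35.6, 30.5 and 15.9 CPM, the highest of the 10 types and 3.52-fold above fibroblast-like cells (6.001 to 8.83 CPM). Lymphatic endothelial-like cells held no Vegfc UMI in any mouse, which allows up to the same 4.28 CPM. Among fibroblasts the cluster led by Cilp and Col1a1 had 22.6, 30.6, 24.7 and 9.59 CPM. Vegfd, another VEGFR3 ligand, was a fibroblast transcript, with 73.4, 67.4, 86.9 and 104 CPM there and at most 19.9 CPM in any mouse of smooth muscle- and pericyte-like cells, the next type. Svep1 and Ccbe1, secreted factors needed for lymphatic vessel formation, were likewise highest in fibroblast-like cells, at means of 179 and 22.8 CPM.

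Pgf was the least even of the ligands across mice. Lymphatic endothelial-like cells had 232, 12.5, 117 and 42.5 CPM, from 57 UMIs in all, and the highest value rests on the 12 cells of PSp mouse 1. Blood endothelial-like cells had 25.6, 42.1, 52.1 and 49.6 CPM, within the lymphatic range. In blood vessels the tip-like group had 58.7, 64.3, 85.3 and 96.3 CPM, the capillary-like group had UMIs in PCSp mouse 1 only (16.7 CPM), and the venous-like group had none. Few cells carried these values: 19 of the 486 blood endothelial-like cells (3.91%) held all 140 Pgf UMIs of the type. Among fibroblasts the Inmt and Wif1 cluster had 27.8, 41.1, 56.3 and 63.2 CPM. In the epithelium the neuroendocrine-like sub-cluster (52 cells) had 12.2, 27.8, 51.1 and 96.9 CPM.

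The level of Angpt1 was highest in fibroblast-like cells, whereas epithelial-like cells held 1805 of its 2687 UMIs and fibroblast-like cells 831. Over all genes, epithelial-like cells held 221643856 UMIs and fibroblast-like cells 18782324. Fibroblast-like cells had 35.2, 56.0, 30.1 and 62.3 CPM, above smooth muscle- and pericyte-like cells (8.27, 17.4, 26.6 and 19.9 CPM) in all 4 mice. The smooth muscle- and pericyte-like levels rest on 28 UMIs. Free fibroblast RNA could give 16.1, 10.2, 11.5 and 7.58 CPM of Angpt1 there, and the level was above it in 3 of 4 mice. The Inmt and Wif1 cluster led, with 152, 169, 105 and 275 CPM, while the other 3 fibroblast-like clusters had means of 2.75 to 34.2 CPM. Epithelial-like cells followed with 6.43 to 9.94 CPM, and 1 basal sub-cluster had a mean of 23.0 CPM. No Angpt1 UMI was found in either endothelial group. Angpt1 (chr15:42424723-42676977) overlaps Gm17473 on the other strand, and Angpt2 (chr8:18690263-18741562) overlaps Mcph1 likewise.

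Angpt2 had no single leading type. Blood endothelial-like cells had 63.4, 113, 41.3 and 77.4 CPM, smooth muscle- and pericyte-like cells 78.5, 21.3, 86.6 and 35.9 CPM, and lymphatic endothelial-like cells 0, 37.6, 61.3 and 97.2 CPM. The 3 ranges overlapped. In blood vessels the tip-like group had 41.8 to 167 CPM, the capillary-like group 15.7 to 41.8 CPM and the venous-like group 8.97 to 174 CPM, and these ranges overlapped as well.

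The Tek level among fibroblasts was highest in 1 cluster, which held 215 of their 580 Tek UMIs, while the largest cluster held 309. That cluster of highest level, led by Fbn1, Dpt and Pi16, had 134, 181, 210.1 and 119 CPM, a range that overlaps blood endothelial-like cells, and the other 3 clusters had means of 2.78 to 32.6 CPM. Free endothelial RNA would give at most 0.967 CPM of Tek in fibroblast-like cells.

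**Figure D4:**
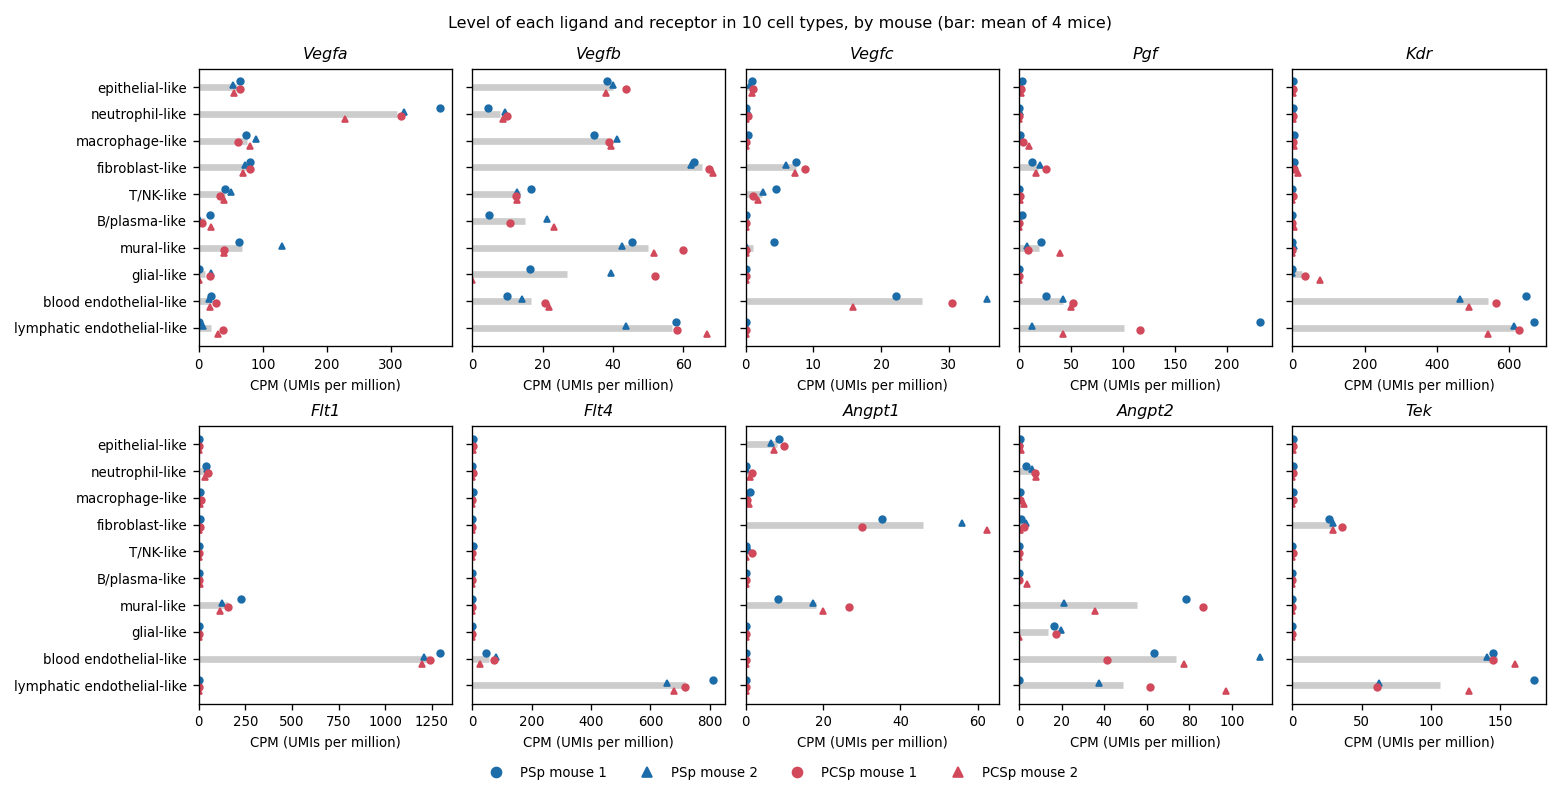
CPM of each gene in 10 marker-named cell types, with 1 point per mouse (blue PSp, red PCSp) and bars at the mean of 4 mice; each panel has its own axis, and mural-like stands for smooth muscle- and pericyte-like cells. Kdr, Flt1, Flt4 and Tek are highest in endothelial-like cells, Vegfa in neutrophil-like cells and Angpt1 in fibroblast-like cells.

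The partners of the receptors also differed between the blood and lymphatic vessels. Nrp1, which binds VEGF-A together with VEGFR2, had 418 to 525 CPM in blood endothelial-like cells and no UMI in the lymphatic group. Nrp2, the partner of VEGFR3, had 401 to 696 CPM in the lymphatic group and 250.2 to 313.5 CPM in the blood group. Ptprb, the phosphatase that restrains TIE2, had 788 to 990.5 CPM in the blood and 100.2 to 348 CPM in the lymphatic group, whereas Tie1, the orphan relative of TIE2, overlapped (188.5 to 233 and 106 to 290.0 CPM). Of the VEGF response genes, Esm1, a tip cell product, had 64.4 to 285 CPM in the tip-like group and at most 4.18 CPM in the capillary- and venous-like groups. Rcan1 and Nr4a2 were highest in the venous-like group, at means of 872 and 679 CPM.

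The genes most like each member over the 10 types, by Pearson's r of log2(mean CPM + 1), are a description of 10 points made from the same 4 libraries. They were Cd300lg (0.952) and Fgd5 (0.948) for Kdr, Kcnj2 (0.922) and Hbb-bs (0.914) for Flt1, Sgsm1 (0.993) and D330037F02Rik (0.990) for Flt4, and Hspa12b (0.977) and Zfp423 (0.974) for Tek. For the VEGF ligands they were Txn1 (0.927) and Stx11 (0.913) for Vegfa, Selenbp1 (0.943) and Cpq (0.932) for Vegfb, Slco1a4 (0.878) and Jam2 (0.872) for Vegfc, and Slc25a32 (0.985) and Pcdhb16 (0.966) for Pgf. Angpt1 was closest to Has2 (0.990) and Kcnma1 (0.981), and Angpt2 to Tspan2 (0.956) and Pcp4l1 (0.940).

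The comparison of PCSp with PSp mice asks whether these genes differ when Chd1 is also floxed. No member passed in any of the 8 cell types with at least 20 cells in every mouse (edgeR quasi-likelihood test, Benjamini-Hochberg adjustment over all genes of a type, threshold 0.05). Of 40 pairs of member and type tested, 0 passed, 4 had an unadjusted p under 0.05, and the lowest adjusted p was 0.542; DESeq2 also called 0. The share of all genes that passed was 0.0368% in blood endothelial-like cells, 0.0% in epithelial-like and in fibroblast-like cells, 0.0797% in macrophages, 0.0887% in neutrophils, 0.0188% in smooth muscle- and pericyte-like cells, 0.398% in T- and NK-like cells and 0.147% in B- and plasma-like cells, where no member had enough counts to be tested. With 2 mice a group, a missed threshold does not show equal levels.

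In blood endothelium the receptors differed by less than their errors. Flt1 differed by -0.05 ± 0.15 (log2, SE, PCSp minus PSp), Kdr by -0.08 ± 0.19, Tek by 0.08 ± 0.19 and Flt4 by -0.25 ± 0.35. Among the ligands, Angpt2 differed by -0.68 ± 0.33, Pgf by 0.58 ± 0.29 and Vegfc by -0.23 ± 0.37. All 7 had an edgeR adjusted p of 0.997. Without PSp mouse 1, which leaves 1 PSp mouse, Angpt2 differed by -1.05 ± 0.28. Over the 9 members tested the median was -0.05, beside -0.003 over all genes.

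The 4 unadjusted p-values under 0.05 belonged to mural cells, neutrophils and macrophages. Among all genes tested there, 246 of 5325, 778 of 9021 and 632 of 10033 had such a p by edgeR. Vegfa in smooth muscle- and pericyte-like cells had 61.99 and 129.6 CPM in the PSp mice and 39.95 and 39.8 CPM in the PCSp mice, a log2 difference of -1.38 ± 0.41 (edgeR unadjusted p = 0.00695, adjusted p = 0.887). These levels rest on 15, 67, 18 and 10 UMIs. Free RNA, mainly of fibroblasts, could give 36.4, 13.2, 30.8 and 8.39 CPM there, and the level was above it in 4 mice. The log2 difference turned on which PSp mouse was kept: it was -1.74 ± 0.38 without PSp mouse 1 and -0.64 ± 0.52 without PSp mouse 2. Vegfa in neutrophil-like cells, given above by mouse, differed by -0.42 ± 0.18 (edgeR unadjusted p = 0.0464, adjusted p = 0.573). Cluster 8, of the lowest mean Vegfa among neutrophils (188 CPM), held 380 of 996, 524 of 1350, 586 of 1338 and 1230 of 2209 cells. The part of this mix in the difference was not tested. The neutrophil difference was -0.63 ± 0.17 without PCSp mouse 1 and -0.22 ± 0.17 without PCSp mouse 2.

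In macrophages Pgf had 0.746 and 1.81 CPM in the PSp mice and 3.80 and 9.60 CPM in the PCSp mice, a log2 difference of 2.28 ± 0.66 (edgeR unadjusted p = 0.0074, adjusted p = 0.542). With no filter on low counts it was 2.30 ± 0.54 and passed (edgeR adjusted p = 0.0153). Calls over all genes rose as well without the filter, to 50 to 201 per type from 0 to 31 with it. Most of these 56 UMIs lay in the cluster led by Retnla and Mgl2, which held 44 of them and had 0, 0, 11.0 and 23.6 CPM. Few cells carried them: 25 of 2159 macrophages had a UMI of Pgf. Free RNA, mainly of lymphatic endothelium, could give 2.57, 0.115, 0.653 and 0.563 CPM of Pgf there. The Pgf level was above this in 3 of 4 mice, all but PSp mouse 1. Flt1 in macrophages had 3.73, 2.90, 12.2 and 5.36 CPM and differed by 1.37 ± 0.49 (edgeR unadjusted p = 0.0211, adjusted p = 0.661). Free endothelial RNA could give 2.42 to 6.30 CPM of Flt1 there, and the level was above it in 2 of 4 mice.

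Vegfa in epithelial-like cells, which include the target of PB-Cre, differed by 0.01 ± 0.11 (edgeR adjusted p = 0.991), and Vegfb by 0.04 ± 0.09. In fibroblast-like cells Vegfa differed by -0.05 ± 0.14, Vegfb by 0.09 ± 0.13, Angpt1 by -0.02 ± 0.35 and Tek by 0.22 ± 0.18. In macrophages Vegfa differed by -0.25 ± 0.16 and Vegfb by 0.00 ± 0.16, and in T- and NK-like cells Vegfa by -0.41 ± 0.22. Within the granzyme-led cluster of T- and NK-like cells, given above by mouse, Vegfa was higher in both PCSp mice. This cluster was chosen after its values were seen and was not fitted by genotype. The share of all genes that part in this way there was not counted, so no genotype difference is read from it. That cluster held 44 of 185, 57 of 216, 63 of 390 and 53 of 305 of these cells. The part of this mix in the pooled value was not tested. Flt1 differed by -0.08 ± 0.20 in neutrophil-like cells and by -0.37 ± 0.34 in smooth muscle- and pericyte-like cells, where Vegfb differed by 0.33 ± 0.36 and Angpt2 by 0.54 ± 0.58. Lymphatic endothelial-like cells, with 12 cells in PSp mouse 1, were tested only as an alternative chosen after seeing the data. There Flt4 differed by -0.02 ± 0.29, Kdr by -0.10 ± 0.28, Tek by -0.01 ± 0.54 and Pgf by 0.72 ± 0.82, and edgeR called 0 of 2749 genes (144 at an unadjusted p under 0.05). The fitted sign for Pgf is opposite to that of its group means, 122 CPM in the PSp and 79.6 CPM in the PCSp mice.

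**Figure D5:**
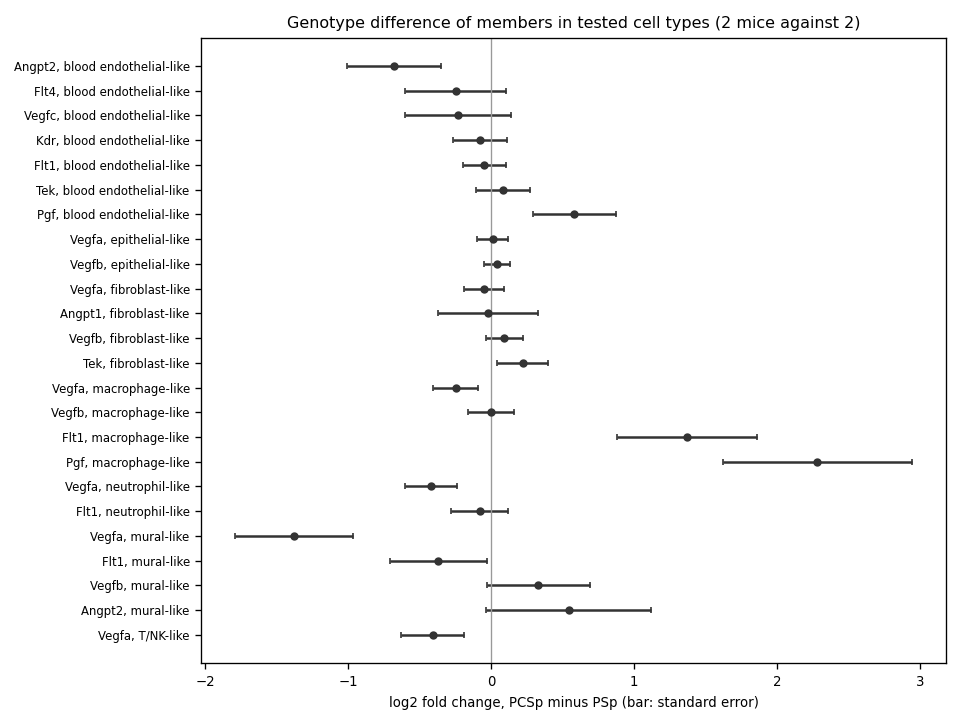
Log2 fold change of PCSp minus PSp, with bars of 1 standard error, for members with at least 20 CPM in a tested cell type or an unadjusted p under 0.05. The points furthest from 0 are Pgf (2.28) and Flt1 (1.37) in macrophages and Vegfa (-1.38) in smooth muscle- and pericyte-like cells, and none passed after adjustment.

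Whether the genotype difference of a member was unlike that in epithelial-like cells was tested by an interaction term with mouse as a block. No member passed in any of 7 types by edgeR. The share of all genes that passed was 0.12% for B- and plasma-like cells, 0.456% for blood endothelial-like cells, 0.0242% for fibroblast-like cells, 0.0702% for macrophages, 0.375% for neutrophils, 0.228% for smooth muscle- and pericyte-like cells and 0.425% for T- and NK-like cells. The lowest adjusted p, 0.301 by edgeR, was that of Angpt1 in neutrophil-like cells, where 9 UMIs, 0 of them in the PSp mice, allow no fold. Vegfa in smooth muscle- and pericyte-like cells had -1.35 ± 0.42 (edgeR unadjusted p = 0.0015, adjusted p = 0.303), and Vegfa in neutrophil-like cells had -0.44 ± 0.19 (edgeR unadjusted p = 0.0244, adjusted p = 0.591). In macrophages Flt1 had 1.82 ± 0.63 (edgeR unadjusted p = 0.0133, adjusted p = 0.711) and Pgf 2.28 ± 0.84 (edgeR unadjusted p = 0.0182, adjusted p = 0.797).

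No other gene of the pathway passed in any of the 8 types. In blood endothelial-like cells edgeR called 0 of 6 tested co-receptors and surface regulators, 0 of 12 signal parts, 0 of 13 VEGF response genes and 0 of 13 hypoxia genes, with medians of -0.05, -0.01, 0.10 and -0.06 (log2) beside -0.003 over all genes. At an unadjusted p under 0.05 there were 1, 0, 5 and 0, against 382 of all 8158 genes. Egr3, an immediate early gene, had 116, 88.4, 154 and 179 CPM, a log2 difference of 0.69 ± 0.20 (edgeR adjusted p = 0.735). Apln, a tip cell peptide, had 90.0, 93.8, 30.5 and 75.4 CPM, a log2 difference of -0.94 ± 0.32 (edgeR adjusted p = 0.914). Among the smallest p-values of the other lists were those of Sema3f (-0.44 ± 0.19) and Tie1 (-0.14 ± 0.18), of Nos3 (-0.26 ± 0.20), and of Hif1a (0.38 ± 0.24) and Adm (-0.39 ± 0.27).

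The cells that carry the receptors were also counted. Blood endothelial-like cells made up 2.10%, 1.95%, 2.04% and 1.40% of the cells, a log2 ratio of -0.24 of PCSp over PSp (exact two-sided permutation p = 0.667). Lymphatic endothelial-like cells made up 0.233% of cells in PSp mouse 1 (95% interval 0.120 to 0.407, Clopper-Pearson), 0.410% in PSp mouse 2 (0.263 to 0.610), 0.946% in PCSp mouse 1 (0.741 to 1.19) and 0.525% in PCSp mouse 2 (0.377 to 0.712), a log2 ratio of 1.19 (exact two-sided permutation p = 0.33). Both PCSp mice lay above both PSp mice in the lymphatic share, but with 2 mice in each group the smallest p this test can reach is 0.33. The intervals cover counting error only and not losses during tissue digestion.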

How the data were processed

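The authors deposited UMI counts per gene and cell barcode, unnormalized whole numbers, for 4 tumours; they were made with Cell Ranger 6.1.2 and mm10, per the submitters' processing notes. Barcodes with at least 500 UMIs, at least 300 genes and at most 20% mitochondrial UMIs were kept. Automatic doublet calls were 0 in 3 libraries and 0.677% in the fourth, so the highest doublet scores were left out at a fixed rate of 0.8% per 1000 barcodes (342 to 746 barcodes), leaving 26418 cells. Cells were clustered with scanpy 1.11.5 (2000 variable genes, 30 components, Leiden resolution 1) into 28 clusters, with 65 genes (members and pathway lists) kept out, and a cluster was named when at least 3 markers of a type were raised in it.

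UMIs were summed per mouse and type. Genotypes were compared with edgeR 4.0.16 (R 4.3.3, TMM, filterByExpr, quasi-likelihood F-test). DESeq2 1.42.0, other normalization, filters and clustering, and leaving out each mouse were the alternatives. The fit was tested on simulated data. Free RNA was bounded by a donor type's level times the highest ratio, recipient over donor, among that donor's 3 most abundant markers. Genotype values are printed for members of at least 20 CPM in a type or an unadjusted p under 0.05 (the second part was added after seeing the data), and for the 2 genes of smallest p per pathway list in blood endothelial-like cells; 1 of these genes and 1 allele are not reported here. Clusters singled out were chosen after their values were seen. The members and lists were chosen with earlier results of these data known. Mouse numbers follow deposition order, the labels name no litter or batch, and no 2 libraries agreed within counting error (chi-square over its degrees of freedom 39.6 to 114). Promoter windows come from RefSeq, for 8 of 10 members.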

Additional observations from a re-analysis of the deposited data

How the results depend on the processing

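No paired analysis was possible because the mouse numbers only follow deposition order and the labels tie no PSp mouse to a PCSp mouse. Of 250 re-fits of 24 member differences, 224 kept direction and side of the threshold and 22 reversed (19 of them by leaving out a mouse). The rest kept direction and crossed the threshold. They were Pgf in macrophages with no filter on low counts, and fits that left 1 mouse in a group. The latter were Angpt2 in blood endothelial-like cells and Vegfa in smooth muscle- and pericyte-like cells and in neutrophils. Calls over all genes rose in these fits too, as given below. With fewer mice a group is 1 mouse, assumed to vary like the other group.

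Reversed were Vegfa in epithelial-like cells with the stricter cell filter (-0.01), and, with doublets left out at double the rate, Angpt1 in fibroblast-like cells (0.02) and Vegfb in macrophages (-0.07). Leaving out each mouse gave, in blood endothelial-like cells, -0.84 to 0.17 for Vegfc, -0.29 to 0.16 for Kdr, -1.28 to 0.20 for Flt4 and -0.02 to 0.20 for Tek. It gave -0.10 to 0.12 for Vegfa and -0.05 to 0.12 for Vegfb in epithelial-like cells, -0.17 to 0.06 for Vegfa and -0.62 to 0.42 for Angpt1 in fibroblast-like cells, and -0.12 to 0.14 for Vegfb in macrophages. Flt1 ranged from -0.39 to 0.18 in neutrophils and from -0.76 to 0.06 in smooth muscle- and pericyte-like cells, where Angpt2 ranged from -0.36 to 1.57. The log2 ratio of the blood endothelial share ranged from -0.536 to 0.00964.

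Without 1 mouse, 0 to 1 member was called in blood endothelial-like cells, fibroblast-like cells, neutrophils and smooth muscle- and pericyte-like cells (there also 0 to 1 in the interaction; the fibroblast call was Kdr, at a mean of 7.18 CPM), and with no filter on low counts 1 member in macrophages. List genes called were 2 in blood endothelial-like cells and 1 each in fibroblast-like cells, macrophages, smooth muscle- and pericyte-like cells and T- and NK-like cells with no filter, and 0 to 3, 0 to 1, 0 to 1, 0 to 2 and 0 to 1 in the same order without 1 mouse.

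Counts over all genes moved most; the cause was not tested. In the order B- and plasma-like, blood endothelial-like, epithelial-like, fibroblast-like, macrophage, neutrophil, smooth muscle- and pericyte-like, T- and NK-like cells, edgeR called 5, 3, 0, 0, 8, 8, 1 and 31 genes. With no filter it called 51, 53, 51, 172, 152, 201, 50 and 142. Leaving out each mouse gave 3 to 48, 36 to 59, 2 to 23, 4 to 115, 16 to 130, 25 to 403, 25 to 152 and 0 to 118. DESeq2 called 197 in epithelial-like cells, 5 in fibroblast-like cells, 26 in macrophages and 16 in neutrophils. Doublets at double the rate gave 3 in B- and plasma-like cells, 5 in blood endothelial-like cells, 15 in macrophages and 0 in smooth muscle- and pericyte-like cells, and the stricter filter gave 5 and 0 in the blood endothelial-like and the smooth muscle- and pericyte-like cells. Interaction calls with no filter were 153 in fibroblast-like cells, 155 in macrophages and 23 in smooth muscle- and pericyte-like cells. Without 1 mouse they ranged over 6 to 20 in B- and plasma-like cells, 38 to 100 in blood endothelial-like cells, 27 to 227 in fibroblast-like cells, 37 to 79 in macrophages, 38 to 155 in neutrophils, 14 to 124 in smooth muscle- and pericyte-like cells and 30 to 80 in T- and NK-like cells.

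Of the leading levels, Flt1 in blood endothelium was 1479 CPM as a mean of CPM per cell and 1174 CPM with the 2 unnamed sub-clusters, an alternative chosen after seeing the data, and Tek 175.4 and 132.8 CPM. Leiden resolution 2 left 7 of 9 types with the same cells, so it checks little there. Depth limits low levels: 3 UMIs are 4.28 CPM in the lymphatic group and 15.3 CPM in glial-like cells.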
